A study of Mus musculus with 39 samples.

Results

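A set of 10 genes used as general markers of astrocytes, out of 55401 genes in the deposited tables, was followed across all libraries of the series. They are Aldh1l1, S100b, Acsbg1, Slc14a1, Agt, Cldn10, Fgfr3, Slc4a4, Ttyh1 and Slc7a10. Each was found by its gene symbol in the GENCODE M21 annotation, matched to the Ensembl identifier of the tables without its version, and each matched 1 row. They were chosen as general astrocyte markers and not by their values, though earlier results of these data were known. All 10 had enough counts to be tested in every comparison.

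RNA was sequenced from sorted astrocytes of male mice, 39 libraries in all, after chronic social defeat stress or in controls. In that procedure a mouse is repeatedly defeated by an aggressor and is later classed by its social behaviour as susceptible (avoiding other mice) or resilient (still approaching them). Sorting used magnetic beads that bind ACSA-2, which marks the astrocyte surface, and libraries were made with a stranded total RNA kit for very small inputs. In the nucleus accumbens (NAc), a reward region of the ventral striatum, there were 8 susceptible, 7 resilient and 7 control libraries. The label PFC, read here as prefrontal cortex, was carried by 6 susceptible, 5 resilient and 6 control libraries. The labels give no strain, genotype, transgene or age, nor how the control mice were housed, and each library carries a mouse number of its own. The protocol text names NAc tissue for all libraries. Averaged over the 3 conditions, Slc17a7, the glutamate loader of cortical neurons, was lower in NAc than in PFC libraries (log2 fold change −2.79 ± 0.37 (SE), edgeR adjusted p = 7.25e-05), and the striatal genes Drd1 (0.65 ± 0.16, edgeR adjusted p = 0.0117) and Rgs9 (0.59 ± 0.11, edgeR adjusted p = 0.000872) were higher. Of 8 striatal markers, 8 had positive values (median 0.31), and only these 2 had an adjusted p under 0.05. The 8 summed to 63.2 to 114 CPM (counts scaled to the library total) in the 6 PFC libraries with sample numbers up to 11. They reached 102 to 176 CPM in the other PFC libraries, overlapping the 117 to 330 CPM of NAc libraries. In the same order, 10 neuronal markers summed to 1081 to 3211, 701 to 1313 and 659 to 1430 CPM. The contrast was thus clearest in those 6 libraries.

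Astrocytes take up and pass on ions, amino acids and water, supply metabolites to neurons and answer growth factor and peptide signals. The 10 genes cover several of these tasks. Aldh1l1 encodes a folate enzyme that oxidises 10-formyltetrahydrofolate, and Acsbg1 an acyl-CoA synthetase that activates long-chain fatty acids. Slc4a4 encodes a sodium bicarbonate cotransporter, Slc7a10 an exchanger of small neutral amino acids such as serine and glycine, Slc14a1 a urea transporter and Ttyh1 a membrane protein of the tweety family linked to chloride channels. Fgfr3 encodes a receptor tyrosine kinase for fibroblast growth factors, Cldn10 a claudin of cell junctions, Agt angiotensinogen, the secreted precursor of the angiotensin peptides, and S100b a small calcium-binding protein that some oligodendrocyte lineage cells also make.

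Library totals ran from 941450 to 37339379 counts, with a median of 11264270, and 3 libraries lay under 2000000 counts (NAc control 3, PFC susceptible 6 and PFC resilient 3). Counts covered whole gene spans, introns included, so every gene also collects reads that do not come from its own mature RNA. That background was measured from 1479 chemosensory receptor genes, most of them silent in brain, and set against the level they would have if counts lay evenly over all gene spans. It was 13.4% to 81.1% of the even level. The 6 PFC libraries with sample numbers up to 11, 2 of each condition, had the 6 lowest PFC values, 13.4% to 43.6%, against 46.1% or more in the other PFC libraries and 35.7% or more in NAc libraries. Markers of other cells were present too. The summed level of 10 oligodendrocyte markers had a median of 1227 CPM (counts scaled to the library total) in NAc susceptible, 775 CPM in NAc resilient and 1907 CPM in NAc control libraries. Their part in the results below was not tested.

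The 10 genes lie on 8 chromosomes, with positions here from GENCODE M21 on the mm10 build. Fgfr3 (chr5:33721674-33737068) and Slc4a4 (chr5:88886818-89239653) share chromosome 5, and Ttyh1 (chr7:4119408-4136708) and Slc7a10 (chr7:35186385-35201114) share chromosome 7, all on the plus strand. Aldh1l1 (chr6:90486427-90600203), S100b (chr10:76253853-76261159) and Cldn10 (chr14:118787908-118875489) also lie on the plus strand. Agt (chr8:124556534-124569706), Acsbg1 (chr9:54604877-54661870) and Slc14a1 (chr18:78100091-78142119) lie on the minus strand. The spans run from 7.31 kb for S100b to 352.84 kb for Slc4a4, whose counted span, implied by the deposited tables, was 353.17 kb. S100b had a median of only 99 counts per library and a lowest value of 3, while Slc4a4 had a median of 7510 counts.

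Some of these counts may belong to neighbours. An antisense gene, D030047H15Rik, overlaps 59.9% of the Ttyh1 span, and its level followed that of Ttyh1 closely (Pearson r = 0.996 over 39 libraries). Dip2a overlaps 23.7% of the S100b span on the other strand (r = 0.509 with S100b), and Gm45901 overlaps 29.1% of the Aldh1l1 span on the same strand (r = −0.03 with Aldh1l1). The counted span of Aldh1l1 was 113.78 kb, against 48.4 kb for the RefSeq gene. The strand setting of the counting is not given in the sources used here, so the values of Ttyh1 and S100b cannot be told apart from those of their overlapping partners there.

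Because several of the genes moved together from library to library, as described further on, the start regions of 6 are shown: Ttyh1, Fgfr3, Slc7a10 and Acsbg1, whose levels went together, and S100b and Agt, whose levels did so less. Each is the RefSeq window on GRCm38.p6 from 250 bases before to 50 bases after a transcript start, written 5′ to 3′ on the strand of the gene. The windows are Ttyh1 chr7:4119280-4119579, Fgfr3 chr5:33721474-33721773 (the first of 2 windows), Slc7a10 chr7:35186135-35186434 and Acsbg1 chr9:54661836-54662135 (minus strand). Those of the other two are S100b chr10:76253586-76253885 and Agt chr8:124569657-124569956 (minus strand). Capitals mark TTGGC or its reverse complement GCCAA, the short site of the nuclear factor I family, whose members are known from astrocyte development.
Ttyh1: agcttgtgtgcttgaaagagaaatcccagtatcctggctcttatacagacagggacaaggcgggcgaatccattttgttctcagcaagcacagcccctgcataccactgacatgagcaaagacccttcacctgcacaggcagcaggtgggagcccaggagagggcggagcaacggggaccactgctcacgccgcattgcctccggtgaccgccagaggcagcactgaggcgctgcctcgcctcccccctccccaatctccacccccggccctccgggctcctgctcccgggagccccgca
Fgfr3: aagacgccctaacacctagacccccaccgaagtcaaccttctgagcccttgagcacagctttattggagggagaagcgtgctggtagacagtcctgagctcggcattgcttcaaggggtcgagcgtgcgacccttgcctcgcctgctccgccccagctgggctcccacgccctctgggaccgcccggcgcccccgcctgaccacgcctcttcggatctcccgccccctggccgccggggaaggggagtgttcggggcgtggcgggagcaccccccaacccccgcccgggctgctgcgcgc
Slc7a10: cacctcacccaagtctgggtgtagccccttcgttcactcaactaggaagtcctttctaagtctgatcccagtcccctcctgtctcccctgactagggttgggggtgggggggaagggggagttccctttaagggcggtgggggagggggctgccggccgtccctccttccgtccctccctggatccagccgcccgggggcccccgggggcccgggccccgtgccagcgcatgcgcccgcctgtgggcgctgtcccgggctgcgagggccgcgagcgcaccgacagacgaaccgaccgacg
Acsbg1: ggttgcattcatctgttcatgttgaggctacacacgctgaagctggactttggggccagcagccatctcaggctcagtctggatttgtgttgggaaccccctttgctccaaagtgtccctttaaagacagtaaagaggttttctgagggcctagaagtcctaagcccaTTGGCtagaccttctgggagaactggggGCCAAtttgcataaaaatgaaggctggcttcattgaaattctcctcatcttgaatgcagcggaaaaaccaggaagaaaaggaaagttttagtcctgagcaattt
S100b: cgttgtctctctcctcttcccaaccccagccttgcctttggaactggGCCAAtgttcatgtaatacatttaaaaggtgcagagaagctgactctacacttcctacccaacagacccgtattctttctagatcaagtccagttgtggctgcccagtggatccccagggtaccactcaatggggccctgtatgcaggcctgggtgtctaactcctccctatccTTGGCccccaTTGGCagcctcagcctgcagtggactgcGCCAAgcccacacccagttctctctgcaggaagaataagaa
Agt: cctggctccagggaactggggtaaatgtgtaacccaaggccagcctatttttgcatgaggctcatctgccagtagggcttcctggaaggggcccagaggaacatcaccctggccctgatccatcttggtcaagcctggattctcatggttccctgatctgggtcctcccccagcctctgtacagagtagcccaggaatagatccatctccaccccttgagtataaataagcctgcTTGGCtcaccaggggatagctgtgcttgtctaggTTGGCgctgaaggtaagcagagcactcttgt

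Of the 10 genes, 9 had windows in the RefSeq table used here, 12 windows in all. The site TTGGC, searched on both strands, occurred in 5 of the 12 windows, from 4 genes: 4 times in S100b, 2 times each in Agt and Acsbg1, and in both windows of Slc4a4. Of all 32851 windows outside chromosome 18, 46.7% held it. The short site TGACG, bound by CREB, the factor in the title of the series, was in 0 of the 12 windows, against 20.8% of all windows, and so was the full site TGACGTCA, which contains it, against 1.79%. ACAAAG, a core recognised by SOX proteins, was in 1 Cldn10 window, against 18.7% of all windows. The windows also differed in base content. The Agt window held 1 CG dinucleotide, Acsbg1 held 2 and S100b held 3, while Ttyh1 held 14, Slc7a10 held 24 and the Fgfr3 windows held 26 and 30, against a median of 7 over all windows.

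Levels of different genes were compared as deposited FPKM, which divides counts by the gene span and the library total. That span includes introns, so the order of genes depends on their length. By CPM, which leaves the span out, Slc4a4 stood highest of the 10, at a mean of 640, against 170 for Ttyh1 and 122 for Fgfr3. The order below is by FPKM. Ttyh1 stood highest, at 9.85 ± 4.98 FPKM (mean ± SD over 39 libraries), and ranked 72 among 21893 protein-coding genes with counts. Fgfr3 followed at 7.90 ± 4.10 FPKM (rank 99) and Slc7a10 at 4.92 ± 1.92 FPKM (rank 213). Acsbg1 (2.46 ± 0.84 FPKM) and Slc4a4 (1.81 ± 0.51 FPKM) came next, within the top 3.10% and 5.88% of protein-coding genes. The other 5 genes lay close together: Aldh1l1 at 1.18 ± 0.25 FPKM, S100b at 1.16 ± 0.36, Agt at 1.03 ± 0.39, Cldn10 at 1.03 ± 0.16 and Slc14a1 at 0.85 ± 0.15 FPKM. Neighbours among the first 4 of these differed by less than 1 SD, while Slc14a1 lay more than 1 SD below Cldn10. Slc14a1 ranked 7547 among protein-coding genes.

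Set against the background of the same library, the order was similar. Ttyh1 had a median of 19.6 times the background FPKM, Fgfr3 16.8 times and Slc7a10 10.96 times. Acsbg1 reached 5.38 times and Slc4a4 4.16 times the background. Aldh1l1, S100b, Cldn10, Agt and Slc14a1 had medians between 2.00 and 2.70 times. For Aldh1l1 in NAc resilient 7 (0.935 times) and Agt in NAc resilient 7 (0.854 times) the level was below the background of its library. The background FPKM equalled a median of 49.9% of the Slc14a1 level, 41.9% of Agt, 41.5% of Cldn10, 38.3% of S100b and 37% of Aldh1l1. It equalled 5.10% of Ttyh1 and 5.94% of Fgfr3. Whether background lies on these genes as it does on the receptor genes was not tested. If it does, a fold change of the 5 lower genes is measured on a value of which a large part is background. For comparison, the astrocyte genes Apoe, Glul and Slc1a2 had medians of 149, 40.6 and 21.6 FPKM, and Gfap 1.73 FPKM.

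**Figure D1:**
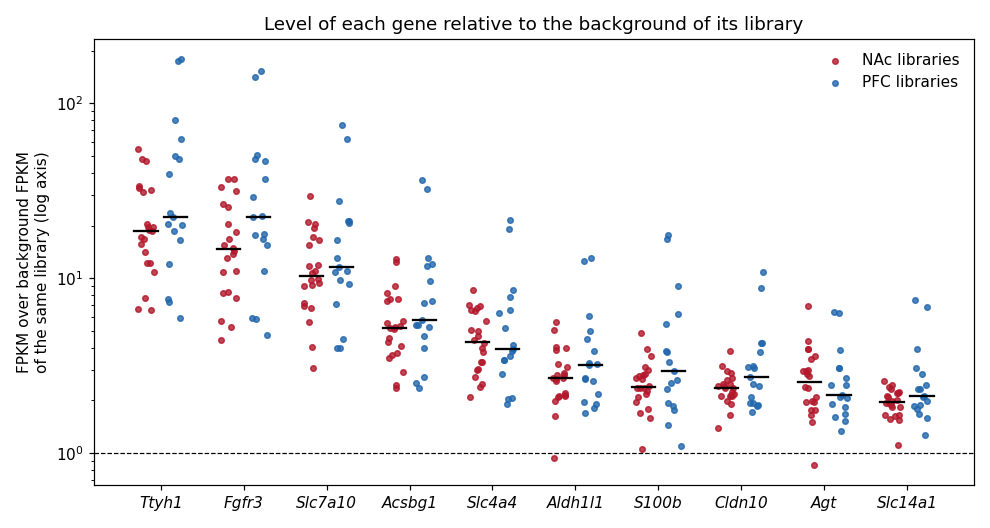
Deposited FPKM of each of the 10 genes divided by the background FPKM of the same library (log axis), for 22 NAc (left of each pair) and 17 PFC libraries. Bars are medians and the dashed line marks equality with background; Ttyh1, Fgfr3 and Slc7a10 stand well above it in every library, while Aldh1l1 and Agt each fall below it in 1 library.

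The genes also differed in how much they varied among libraries. Fgfr3 spanned 9.34-fold between its highest library (PFC resilient 2, 20.7 FPKM) and its lowest (NAc resilient 5, 2.22 FPKM), and Ttyh1 spanned 8.58-fold. S100b spanned 5.61-fold, Agt 5.43-fold, Slc7a10 4.95-fold and Acsbg1 4.00-fold. Slc14a1 and Cldn10 were the steadiest, at 2.44-fold and 2.32-fold. Of the 10 genes, 6 had their highest FPKM in the same library, PFC resilient 2.

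In NAc, all 10 genes had negative log2 fold changes in resilient against control mice with TMM, the library scaling of edgeR, and none of them passed the test. The count was 9 of 10 with RLE, the scaling of DESeq2, 8 of 10 with limma-voom and 7 of 10 with the background percent as a covariate. Fgfr3, the growth factor receptor, ran from 3.81 through a median of 6.52 to 11.7 FPKM in the 8 susceptible libraries, from 2.22 through 4.24 to 13 FPKM in the 7 resilient ones and from 4.84 through 7.63 to 11.9 FPKM in the 7 controls. The 3 groups overlapped widely, with the highest resilient library above every control. Ttyh1 ran from 5.76 through 7.92 to 17.4 FPKM in susceptible, from 3.34 through 5.59 to 18.2 FPKM in resilient and from 6.34 through 8.94 to 15.0 FPKM in control libraries. In both genes NAc resilient 1 was the highest of its group, and 4 of 7 resilient libraries lay below the lowest control.

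The transporter Slc7a10 showed the same picture, from 3.19 through 4.60 to 9.37 FPKM in susceptible, from 1.89 through 3.75 to 7.93 FPKM in resilient and from 4.05 through 5.26 to 7.72 FPKM in control libraries. Acsbg1, the fatty acid enzyme, averaged 2.54 ± 0.72 FPKM in susceptible, 2.03 ± 0.78 in resilient and 2.60 ± 0.66 in control libraries (SD, n = 8, 7 and 7). Slc4a4, the bicarbonate cotransporter, averaged 1.96 ± 0.51, 1.74 ± 0.55 and 2.09 ± 0.51 FPKM in the same order of groups. Aldh1l1, the folate enzyme, averaged 1.27 ± 0.26, 1.07 ± 0.31 and 1.24 ± 0.15 FPKM. Of the remaining 4 genes, S100b averaged 1.14 ± 0.20, 1.05 ± 0.23 and 1.10 ± 0.37 FPKM, Cldn10 1.10 ± 0.10, 1.00 ± 0.10 and 0.96 ± 0.13 FPKM and Slc14a1 0.92 ± 0.09, 0.84 ± 0.09 and 0.78 ± 0.17 FPKM in susceptible, resilient and control libraries. By FPKM, Cldn10 and Slc14a1 were thus highest in susceptible and lowest in control libraries, and their resilient means stood above the control means although the TMM-scaled fold change was negative. Agt, the angiotensin precursor, had its highest value of the series, 2.42 FPKM, in a NAc control library, and its NAc group means were 1.08 ± 0.28, 1.19 ± 0.54 and 1.25 ± 0.58 FPKM.

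**Figure D2:**
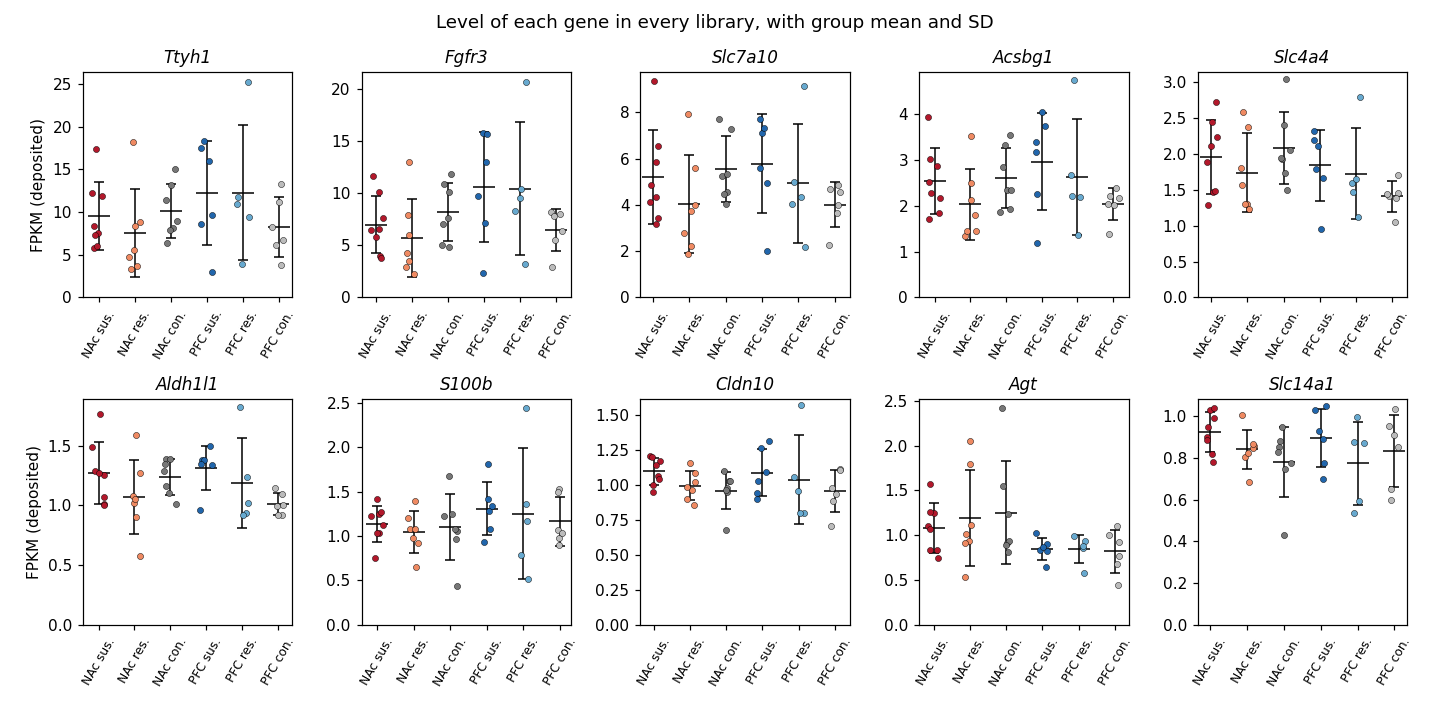
Deposited FPKM of each gene in every library (points) with the mean and SD of each group (bars), in NAc susceptible (n = 8), NAc resilient (7), NAc control (7), PFC susceptible (6), PFC resilient (5) and PFC control (6) libraries. The groups overlap for every gene in every comparison, and one PFC resilient library is the highest of all for Ttyh1 (25.3 FPKM) and Fgfr3 (20.7 FPKM).

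For NAc resilient against control mice, the edgeR quasi-likelihood test gave negative log2 fold changes for 10 of 10 genes, with a median of −0.32, against 0.01 over all 35943 genes tested. None of the 10 passed an adjusted p of 0.05, and 0% of all genes did. At an unadjusted p under 0.05 the count was 0 of 10, against 6.14% of all genes. Fgfr3 had a log2 fold change of −0.59 ± 0.41 (SE), Slc7a10 −0.53 ± 0.34, Ttyh1 −0.48 ± 0.40 and Acsbg1 −0.43 ± 0.27, and the lowest edgeR adjusted p among the 10 was 0.756. The intervals of 2 SE ran from −1.41 to 0.23 for Fgfr3 and from −0.26 to 0.17 for Cldn10. For Ttyh1 and Slc7a10 the interval also reached below −1, to −1.28 and −1.2, while for Slc14a1 it ran from −0.23 to 0.21. In bulk RNA, fewer astrocytes in a sample and less RNA per astrocyte cannot be told apart. The resilient libraries also had the higher background, 51.1% to 81.1% with a median of 65.3%, against 35.7% to 59.9% with a median of 58.5% in control libraries. Leaving out single libraries, the median ran from −0.50 without NAc resilient 1 to −0.20 without NAc control 6. With the background percent as a covariate the median of the 10 genes was −0.01, and Aldh1l1 and Agt had 0.04 and 0.16.

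For NAc susceptible against control mice the median log2 fold change of the 10 genes was −0.13, with 8 negative values and 2 positive, against 0.00 over all genes. Without NAc control 6 the median was 0.01, and without NAc susceptible 4 it was −0.25. Again 0 of 10 passed, as did 0% of all genes, and at an unadjusted p under 0.05 the counts were 0 of 10 and 3.02% of all genes. Agt (−0.33 ± 0.27 (SE)) and Fgfr3 (−0.30 ± 0.40) lay furthest below 0, and Slc14a1 (0.13 ± 0.11) furthest above. Susceptible against resilient mice gave a median of 0.22, with 9 of 10 values positive. It ran from 0.13 without NAc susceptible 4 to 0.39 without NAc resilient 1. Slc7a10 (0.37 ± 0.33), Ttyh1 (0.33 ± 0.39) and Acsbg1 (0.32 ± 0.26) had the largest values there, Agt was negative (−0.11 ± 0.26), and 0 of 10 passed, with 0% of all genes passing. At an unadjusted p under 0.05 the counts were 0 of 10 and 2.90% of all genes. With the background percent as a covariate the median of this comparison was −0.03. The comparisons share their libraries, so their medians are not independent.

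In PFC all 10 genes had positive log2 fold changes in susceptible and in resilient against control mice with TMM scaling, with wide errors, and none passed the test. For resilient mice 8 of 10 were positive with limma-voom and 9 of 10 with the replicate block, the background covariate or no count filter. Fgfr3 ran from 2.37 through a median of 11.3 to 15.8 FPKM in the 6 susceptible libraries. It was 9.56, 20.7, 10.4, 3.22 and 8.29 FPKM in PFC resilient 1 to 5, and ran from 2.96 through 7.10 to 8.22 FPKM in the 6 controls. By FPKM, 4 of 6 libraries in susceptible and 4 of 5 in resilient mice lay above every control, while 1 susceptible library lay below them all. By CPM with TMM scaling over 39 libraries fewer lay above. The highest control was then PFC control 2, at 173 CPM. Only PFC susceptible 1 (362), 2 (272) and 6 (203) and PFC resilient 1 (195) and 2 (440) exceeded it. Ttyh1 ran from 2.95 through 12.8 to 18.4 FPKM in susceptible libraries, was 11.8, 25.3, 11.0, 3.98 and 9.44 FPKM in resilient ones, and ran from 3.85 through 7.53 to 13.3 FPKM in controls.

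Aldh1l1 averaged 1.31 ± 0.18 FPKM in susceptible, 1.19 ± 0.38 in resilient and 1.01 ± 0.09 in control libraries (SD, n = 6, 5 and 6). Acsbg1 averaged 2.96 ± 1.06, 2.63 ± 1.27 and 2.04 ± 0.35 FPKM in the same groups, Slc7a10 5.77 ± 2.13, 4.93 ± 2.57 and 4.00 ± 0.97 FPKM, and Slc4a4 1.84 ± 0.50, 1.73 ± 0.63 and 1.41 ± 0.21 FPKM. In all 4 genes the spread was wider in the stressed groups than in controls. S100b averaged 1.31 ± 0.30 FPKM in susceptible and 1.17 ± 0.28 FPKM in control libraries, and in the 5 resilient ones it was 1.17, 2.45, 0.512, 0.788 and 1.36 FPKM. Cldn10 averaged 1.09 ± 0.17, 1.04 ± 0.32 and 0.96 ± 0.15 FPKM in susceptible, resilient and control libraries, Agt 0.85 ± 0.12, 0.85 ± 0.16 and 0.82 ± 0.24 FPKM, and Slc14a1 0.89 ± 0.14, 0.77 ± 0.20 and 0.83 ± 0.17 FPKM. The resilient mean of Slc14a1 was thus below the control mean by FPKM, and its TMM-scaled log2 fold change was 0.02 ± 0.20 (SE).

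For PFC susceptible against control mice the median log2 fold change of the 10 genes was 0.44, against −0.01 over the 32167 genes tested. Fgfr3 had 0.79 ± 0.50 (SE), Acsbg1 0.62 ± 0.37, Ttyh1 0.61 ± 0.52, Slc7a10 0.59 ± 0.40 and Aldh1l1 0.42 ± 0.24, and every edgeR adjusted p was 1.0. For PFC resilient against control mice the median was 0.40, with 0.84 ± 0.52 for Fgfr3, 0.70 ± 0.54 for Ttyh1 and 0.52 ± 0.38 for Acsbg1. In both comparisons 0 of 10 passed, as did 0% of all genes. At an unadjusted p under 0.05 it was 0 of 10 in both, against 0.482% of all genes for susceptible and 0.597% for resilient mice. Susceptible against resilient mice had a median of −0.01, with 5 positive and 5 negative values between −0.09 (Ttyh1) and 0.15 (Slc7a10). There too 0 of 10 passed and 0% of all genes did, and 0 of 10, against 0.572% of all genes, had an unadjusted p under 0.05. DESeq2 and limma-voom also called 0 genes in each of the 6 comparisons within a region. Markers of other cells leaned one way in PFC too, with 0 passing. For susceptible against control mice 6 of 6 mural markers had positive values (median 0.59), as did 7 of 7 endothelial ones (0.23), and 9 of 10 neuronal markers had negative ones (−0.28). For resilient against control mice 5 of 6 mural (0.54) and 10 of 10 oligodendrocyte markers (0.30) were positive. The summed mural level was 318 to 1139 CPM in susceptible, 342 to 1142 CPM in resilient and 280.4 to 727 CPM in control libraries. The part of these cells in the values of the 10 genes was not tested.

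The library PFC resilient 2 decided part of the resilient values. Without it, the median for resilient against control mice was 0.03, and S100b (−0.23), Slc14a1 (−0.19), Cldn10 (−0.05) and Slc7a10 (−0.03) had negative log2 fold changes. For susceptible against resilient mice the median without that library was 0.42. Its background was 19%, among the lowest of the series. For susceptible against control mice the median ran from 0.29 to 0.57 as single libraries were left out, lowest without PFC susceptible 1, and it kept its sign each time. Without the 6 PFC libraries of low background the medians were 0.30 for susceptible and 0.09 for resilient against control mice, with 9 and 7 of 10 values positive.

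**Figure D3:**
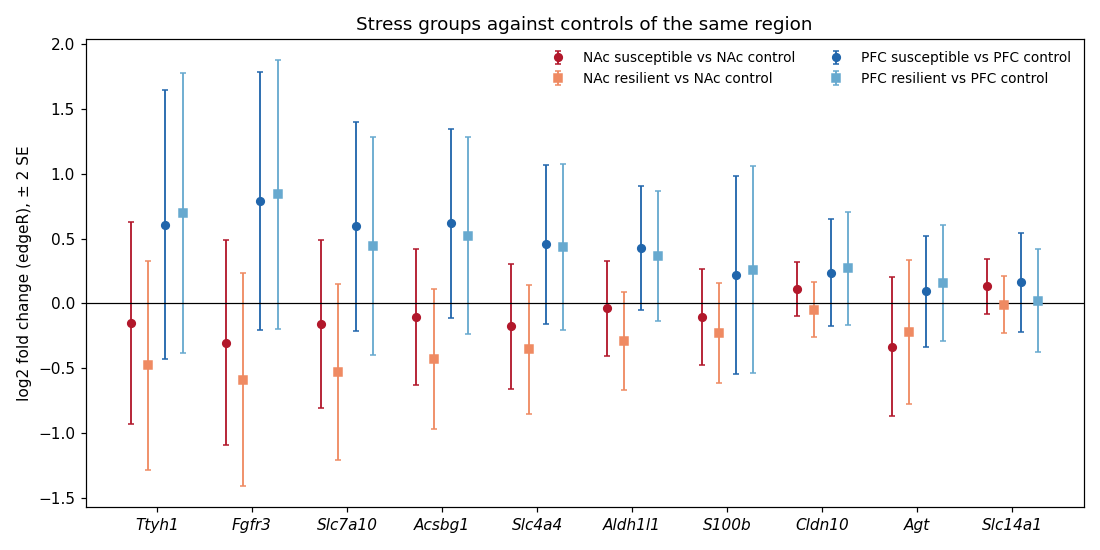
Log2 fold change of each gene from edgeR (points) with 2 SE on either side (bars), for susceptible and resilient against control mice in NAc and in PFC. The NAc values are mostly below 0 and the PFC values above 0, and every bar crosses 0.

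Whether the stress effects differed between the regions was tested as an interaction in 1 fit of all 39 libraries. The resilient effect in NAc minus that in PFC was negative for 10 of 10 genes, with a median of −0.70, against 0.07 over all 38171 genes. Fgfr3 had a difference of −1.42 ± 0.68 (SE, unadjusted p = 0.0438, edgeR adjusted p = 0.849) and Aldh1l1 −0.64 ± 0.31 (unadjusted p = 0.0470, edgeR adjusted p = 0.849). These 2 of 10 had an unadjusted p under 0.05, against 3.45% of all genes, and 0 of 10 passed after adjustment, with 0% of all genes passing. With the replicate number as a block 6 of 10 had an unadjusted p under 0.05 (median −0.75), with RLE scaling or DESeq2 4 of 10, and with the background percent as a covariate 0 of 10 (median −0.32). In PFC, replicates 1 and 2 of each condition are the 6 libraries of low background. In the reported fit Acsbg1 had −0.94 ± 0.46 and Slc4a4 −0.77 ± 0.40. The susceptible effect in NAc minus that in PFC had a median of −0.52, with 9 negative values, and Fgfr3 again had the largest, −1.07 ± 0.65. Of these 10, 0 passed, as did 0% of all genes, and 0 of 10 had an unadjusted p under 0.05, against 1.38% of all genes. A stress effect of the 10 genes that differs between NAc and PFC was not detectable at this spread. Without PFC resilient 2 the resilient median was −0.39, and without the 6 PFC libraries of low background the resilient and susceptible medians were −0.39 and −0.37.

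Between the regions, Agt was the gene with the clearest excess in NAc. By FPKM, 10 of 22 NAc libraries, 4 susceptible, 3 resilient and 3 control, lay above the highest of the 17 PFC libraries (1.10 FPKM). By CPM with TMM scaling over 39 libraries fewer lay above. The highest PFC library was then PFC resilient 2, at 16.94 CPM. Only NAc susceptible 3, NAc resilient 5 and 6 and NAc control 4 and 6 exceeded it. Over the 3 conditions together Agt averaged 1.17 ± 0.46 FPKM in NAc (SD, n = 22) and 0.84 ± 0.17 FPKM in PFC libraries (n = 17). In control mice its log2 fold change was 0.61 ± 0.26 (SE, unadjusted p = 0.0227, edgeR adjusted p = 0.728), and averaged over the 3 conditions it was 0.36 ± 0.15 (unadjusted p = 0.0207, edgeR adjusted p = 0.172). Neither passed. Without NAc control 4 the control value was 0.34 with an edgeR adjusted p of 1.0, and limma-voom gave 0.38. Over the alternatives its adjusted p ran from 0.216 to 1.0. With consecutive sample numbers as pairs the average over conditions was 0.21. In susceptible mice Agt had 0.22 ± 0.25 and in resilient mice 0.27 ± 0.28, so its sign was the same in each condition. With the background percent as a covariate, the average over conditions was 0.49 with an edgeR adjusted p of 0.0915, the lowest of all alternatives, whose adjusted p ran up to 0.558 (limma-voom).

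Fgfr3 had the opposite sign. It averaged 6.97 ± 3.15 FPKM in NAc and 9.10 ± 4.91 FPKM in PFC libraries, and the log2 fold change of NAc against PFC was −1.18 ± 0.49 (SE) in resilient mice (unadjusted p = 0.0206, edgeR adjusted p = 0.322). In susceptible mice it was −0.83 ± 0.45 and in control mice 0.24 ± 0.47. Resilient mice also gave −1.02 ± 0.50 for Ttyh1 and −0.34 ± 0.16 for Cldn10. These 3 of 10 had an unadjusted p under 0.05 there, against 14.6% of all genes, and 0 of 10 passed after adjustment, as did 0% of all genes. In control mice 1 of 10, Agt, had an unadjusted p under 0.05, against 5.04% of all genes, and 0 of 10 passed, against 0.00262% of all genes. In susceptible mice it was 0 of 10 against 6.23%, and 0 of 10 passed against 0.00262% of all genes.

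Averaged over the 3 conditions, 1527 of 38171 genes (4.00%) differed between NAc and PFC libraries at an adjusted p under 0.05, 103 higher and 1424 lower in NAc, and 0 of the 10 genes were among them. At an unadjusted p under 0.05 the counts were 3 of 10 (Agt, Fgfr3 and S100b), against 20.1% of all genes. Fgfr3 had −0.59 ± 0.27 (SE) and S100b −0.37 ± 0.17, and the other 7 lay between −0.48 (Ttyh1) and 0.04 (Slc4a4). Without the 6 PFC libraries of low background 9 of the 10 values were positive, against 2 of 10 with them. The average over conditions was then 0.06 for Fgfr3, 0.17 for S100b and 0.50 for Agt, and 43 genes passed in place of 1527. Markers of other cells also passed in this comparison. Of 6 mural markers, 5 were lower in NAc (median −0.80), as were 8 of 10 neuronal (−0.73) and 2 of 10 microglial ones (−0.45), while 1 neuronal marker was higher. The summed mural level was 239.9 to 507 CPM in NAc and 280.4 to 1142 CPM in PFC libraries. Their part in the region values of the 10 genes was not tested.

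Of 40 further astrocyte genes (such as Slc1a2, Glul, Aqp4 and Sox9), 0 passed in any of the 6 comparisons within a region. Their median log2 fold change was −0.52 in NAc resilient against control mice, with 39 of 40 negative, and 0.69 in PFC susceptible and 0.69 in PFC resilient against control mice, with 40 of 40 positive in each. The smallest unadjusted p among them in NAc resilient against control mice belonged to Aqp4, the water channel (−0.85 ± 0.34 (SE)), and Dio2, which activates thyroid hormone (−0.70 ± 0.33). In susceptible against control mice it was Gfap, an intermediate filament protein, both in NAc (0.67 ± 0.27) and in PFC (0.76 ± 0.32). Averaged over conditions, 3 of the 40 passed, against 4.00% of all genes, and all 3 were lower in NAc than in PFC libraries. Dio2 had −1.16 ± 0.27 (edgeR adjusted p = 0.0100) and Slc25a18, a mitochondrial glutamate carrier, −0.77 ± 0.19 (edgeR adjusted p = 0.0128). The connexin Gjb6 had −0.98 ± 0.25 (edgeR adjusted p = 0.0154). Over all genes 1527 passed there, but only 43 without the 6 PFC libraries of low background and 11 with consecutive numbers as pairs. Whether these 3 were among them is not reported here.

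Of 22 close relatives of the 10 genes, such as Aldh1l2, Acsbg2, Fgfr1 and Ttyh2, 0 passed in any comparison within a region. Ttyh2, a relative of Ttyh1 with known expression in oligodendrocytes (−0.65 ± 0.23 (SE)), and the myelin claudin Cldn11 (−1.16 ± 0.43) had the smallest p among them in NAc resilient against control mice. The 10 oligodendrocyte markers, which include Cldn11, had a median of −1.14 in the same comparison, with 10 of 10 negative and 0 passing. At an edgeR unadjusted p under 0.05 it was 9 of 10, against 6.14% of all genes. In NAc susceptible against control mice 10 of 10 were negative too (median −0.82), with 0 passing. There 6 of 10, against 3.02% of all genes, had such a p. In the resilient comparison 6 of 6 mural (−0.36) and 6 of 7 endothelial markers (−0.18) were negative, while 6 of 10 neuronal ones were positive (0.09). The part of these cells was not tested. Averaged over conditions, Slc4a3 alone of the 22 passed, against 4.00% of all genes. It was lower in NAc than in PFC libraries (−0.75 ± 0.21, edgeR adjusted p = 0.0373). Among relatives, Fgfr1 had a median of 1.90 FPKM and Fgfr2 0.66 FPKM, against 7.62 FPKM for Fgfr3. FPKM divides by the counted span, and before that division the order of Fgfr2 and Fgfr3 was reversed. In the NAc fit Fgfr2 had an average log2 CPM of 10.9, against 6.80 for Fgfr3. Ttyh3 had 5.98 and Ttyh2 1.53 FPKM, against 8.63 FPKM for Ttyh1, and Acsbg2 had 0.76 FPKM, against 2.25 FPKM for Acsbg1. S100a1 had a median of 4.27 FPKM, against 1.08 FPKM for S100b.

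Across the 39 libraries, 6 of the genes varied together. All 15 pairs among Fgfr3, Ttyh1, Slc7a10, Acsbg1, Slc4a4 and Aldh1l1 had a Pearson r of log2 CPM between 0.869 and 0.978. Cldn10 had a median r of 0.706 with the other genes and S100b 0.635. Agt and Slc14a1 stood apart, with medians of 0.372 and 0.365 and an r of 0.197 with each other, the lowest of the 45 pairs. Slc14a1 went best with Cldn10 (0.756). These values are descriptions over libraries that share depth and background, and Ttyh1, Fgfr3, Slc7a10, Acsbg1 and Slc4a4 are also the 5 genes furthest above background.

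**Figure D4:**
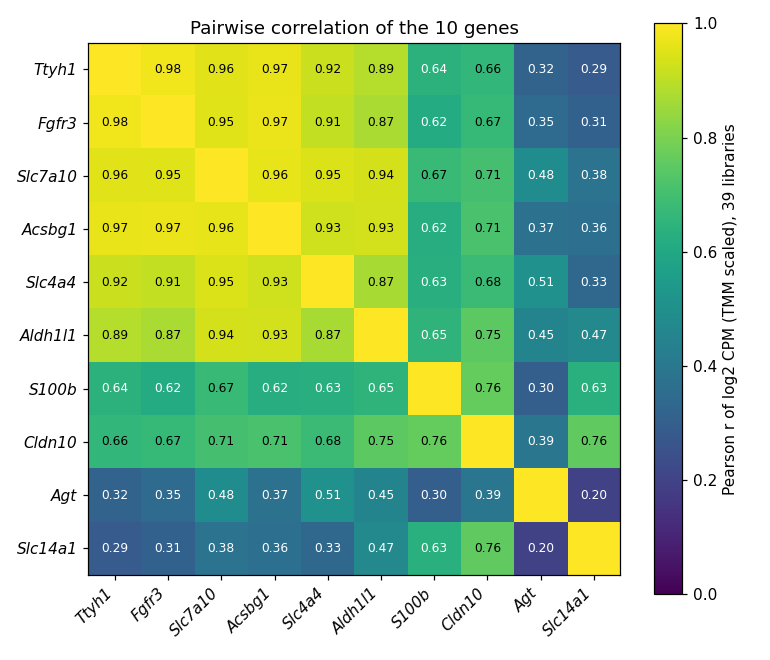
Pearson r of TMM-scaled log2 CPM for each pair of the 10 genes over 39 libraries, by colour and number. The upper left 6 genes have r from 0.869 to 0.978, and Agt and Slc14a1 have an r of 0.197 with each other.

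Among 13100 named genes with a mean log2 CPM above 3, those most like the mean of the 10 (as z-scores over libraries) were Sash1 (r = 0.979), Slc6a11 (0.970), Fam213a (0.958), Glud1 (0.958) and Mmd2 (0.956). The closest gene to single members was also sought. Slc1a3, a glutamate transporter, was closest to Ttyh1 (r = 0.989), Gpr37l1 to Fgfr3 (0.987), Acsl6 to Acsbg1 (0.981) and Ntsr2 to Slc7a10 (0.981). Cyp2j9 was closest to Slc4a4 (0.970), Fgfrl1 to Aldh1l1 (0.947) and Sema4b to Cldn10 (0.869). Slc14a1 and Agt had weaker closest matches, Pxmp4 for Slc14a1 (0.798) and Lrig1 for Agt (0.783).

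The mean level of the 10 genes went with the background of the library. Both measures draw on the same counts of a library, so they are not independent. No other genes were set beside the 10 here. The mean z-score ran from −1.42 in NAc resilient 7, which had the highest background (81.1%), to 2.43 in PFC resilient 2 (19%). Over all 39 libraries Pearson r was −0.766 and Spearman rho −0.797. It was −0.664 (rho −0.712) within 22 NAc and −0.828 (rho −0.870) within 17 PFC libraries. Without the 2 libraries farthest from the median background r was −0.657, and without the 6 PFC libraries of low background it was −0.709. By gene, r over all libraries ran from −0.828 for Ttyh1 and −0.797 for Acsbg1 to −0.252 for Slc14a1 and −0.211 for Agt. S100b differed between regions, with −0.112 (rho −0.31) in NAc and −0.896 (rho −0.934) in PFC libraries. Cldn10 (−0.25 in NAc and −0.65 in PFC) and Slc14a1 (0.19 and −0.44) also had a lower r in PFC. Aldh1l1, Acsbg1 and Agt went slightly the other way. These differences were not tested.

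**Figure D5:**
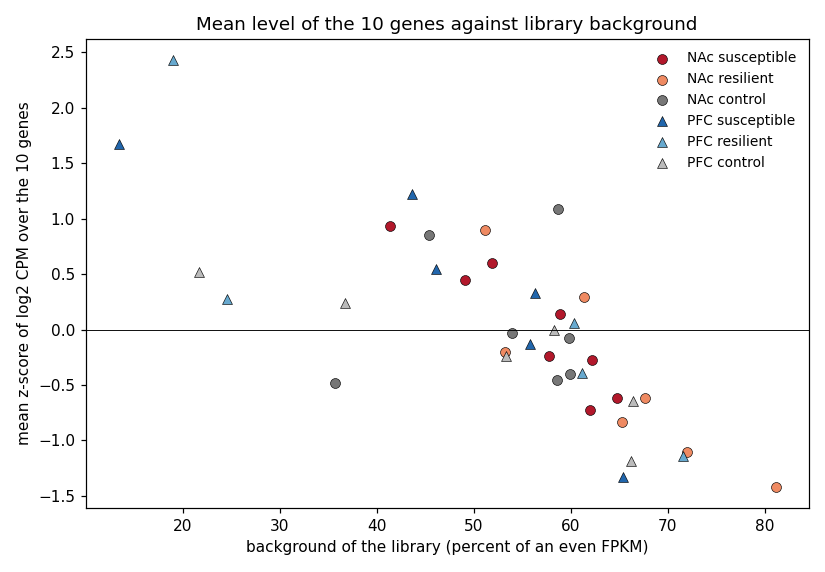
Mean z-score of log2 CPM over the 10 genes against the background of each library in percent of an even FPKM, with NAc libraries as circles and PFC libraries as triangles, coloured by condition. Libraries of high background have low values (Pearson r = −0.766, n = 39), and NAc control 3, the library with the fewest counts, lies at −0.48 with a background of 35.7%.

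The ratio of genes within a library varied less than their levels for some pairs. Ttyh1 over Fgfr3 in FPKM ran from 1.04 through a median of 1.30 to 1.58 in NAc and from 0.994 through 1.2 to 1.67 in PFC libraries. Slc7a10 over Fgfr3 had medians of 0.757 in NAc susceptible, 0.707 in NAc resilient and 0.666 in NAc control libraries, and of 0.570, 0.441 and 0.624 in the same PFC groups. Slc4a4 over Fgfr3 had medians of 0.300 in NAc and 0.184 in PFC libraries. Agt over Fgfr3 varied most, from 0.0718 to 0.809 in NAc and from 0.0411 to 0.352 in PFC libraries. Neither these ratios nor their differences between groups were tested.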

How the data were processed

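RNA of ACSA-2-sorted cells was measured in 39 libraries. The authors deposited whole-number counts for each gene, made with featureCounts on mm10 per the submitters' processing notes. For aligner, versions, annotation and strand setting, the sources used here give nothing. FPKM as deposited are those counts divided by gene length and library total. The implied length equalled the GENCODE M21 gene span, introns included, for 54229 of 54229 genes compared, within 1e-06. Of the identifiers, 260 had no name in that annotation. Slc4a4 and Agt carry a later identifier version in the tables than in GENCODE M21.

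The background of a library is the FPKM of 1479 olfactory, vomeronasal and trace-amine receptor genes, as summed counts over summed spans, in percent of 0.764 FPKM, which an even cover of 1308.8 Mb of gene spans would give.

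Counts were tested with edgeR 4.0.16 (quasi-likelihood, TMM scaling, default count filter by group, robust dispersion) in R 4.3.3, and called at a Benjamini-Hochberg adjusted p under 0.05 over all genes tested. Each region was fitted with its 3 conditions in 1 model, and regions and interactions in 1 fit of 39 libraries. Fold changes are log2 with their SE. The p-values are two-sided and measure only the spread between libraries, and the labels do not say whether consecutive sample numbers in NAc and PFC, 16 pairs, share a mouse. Z-scores and correlations used log2 CPM with TMM scaling. Fits were tested on simulated data. All 10 genes are named in every comparison, along with the 5 genes most like their mean, the closest gene to each, and from the lists of 40 astrocyte genes and 22 relatives any gene past the threshold or else those with the 2 smallest p. Of these, the text names a few, and the closest gene to S100b is not reported here. The members, lists and tests were chosen with earlier results of these data known. The average over the 3 conditions and the fits without 6 PFC libraries were added after seeing the data. Alternatives were RLE scaling, no count filter, DESeq2 1.42.0, limma-voom (limma 3.58.1) with library weights, the replicate number as a block, only the 2 groups compared, consecutive numbers as pairs, the background percent as a covariate, no library under 2000000 counts, and each library left out in turn.

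After subtracting group means, same-numbered libraries of PFC correlated over 0.1 in all pairs among genes of log2 CPM above 3 (lowest 0.146), but not among genes above 1 (lowest 0.00586), and those of NAc libraries correlated with both signs. In PFC, replicates 1 and 2 of each condition are the 6 libraries of low background, so the replicate number goes partly with background there. The part of background in these correlations was not tested. No label ties the numbers to litters or days.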

Additional observations from a re-analysis of the deposited data

Results flagged for a closer look

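The 10 genes in 6 groups gave 60 sets of 5 to 8 libraries. Of these, 5 had a library far from the rest of its group by Dixon's criterion, and chance alone flags about 1 in 20. Aldh1l1 in PFC susceptible 3 had 0.956 FPKM, against 1.33 FPKM or more in the other 5 libraries. Acsbg1 in PFC control 4 had 1.38 FPKM, against 2.03 FPKM or more in the others. Slc14a1 and Cldn10 were both lowest in NAc control 3, at 0.430 FPKM and 0.679 FPKM, against 0.746 FPKM or more and 0.951 FPKM or more. That library had the fewest counts of the series, 941450. Ttyh1 in NAc resilient 1 had 18.2 FPKM, against 8.85 FPKM or less in the other 6 libraries. The part of depth in these values was not tested.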

How the results depend on the processing

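None of the 10 genes passed in any comparison under any alternative, leaving out single libraries included. Of 987 fold changes recomputed under the alternatives, 89 changed sign, 47 of them by less than 1 SE of the reported value, and of 1807 recomputed without 1 library, 82 did, 72 by less than 1 SE. For NAc against PFC averaged over the conditions, these counts cover only Agt, Fgfr3 and S100b, which had an edgeR unadjusted p under 0.05. Of all 10 genes, 2 had positive values in that comparison as reported. It was 9 of 10 without the PFC libraries of low background and 7 of 10 with the background percent as a covariate. Sign changes of the other genes there are neither counted nor listed. The counted changes beyond 1 SE are these. With the background percent as a covariate, NAc susceptible against resilient mice gave −0.14 for Fgfr3, −0.11 for Ttyh1, −0.082 for Slc4a4, −0.040 for Slc7a10, −0.026 for Acsbg1 and −0.026 for Aldh1l1, and NAc resilient against control mice 0.035 for Aldh1l1 and 0.16 for Agt. NAc against PFC then gave 0.19 for Slc4a4, 0.079 for Slc7a10 and 0.014 for Ttyh1 in susceptible mice, 0.24 for Slc4a4, 0.16 for Slc7a10 and 0.036 for S100b in resilient mice, and 0.030 for S100b over the conditions. Under limma-voom, NAc against PFC gave 0.21 for S100b in control and 0.012 for Slc4a4 in resilient mice. NAc resilient against control mice gave 0.074 for Agt, and Cldn10 had −0.0053 in PFC resilient against control and 0.19 in PFC susceptible against resilient mice.

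Without the 6 PFC libraries of low background, NAc against PFC in susceptible mice gave 0.25 for Slc4a4, 0.14 for Slc7a10, 0.066 for Acsbg1, 0.046 for Slc14a1, 0.038 for Ttyh1, 0.035 for Aldh1l1, 0.031 for Cldn10 and 2.44e-05 for S100b. In resilient mice it gave 0.26 for Slc4a4, 0.18 for S100b, 0.11 for Slc7a10, 0.084 for Slc14a1, 0.071 for Cldn10 and 0.024 for Aldh1l1. It gave 0.34 for S100b in control mice, and 0.063 for Fgfr3 and 0.17 for S100b over the conditions. Slc14a1 had −0.030 in PFC susceptible and −0.19 in PFC resilient against control mice, Cldn10 −0.088 in the second of these, and the resilient interactions were 0.22 for Slc14a1 and 0.077 for Cldn10. Leaving out single libraries, PFC resilient against control mice ran from −0.23 to 0.49 for S100b, −0.19 to 0.10 for Slc14a1, −0.047 to 0.36 for Cldn10 and −0.035 to 0.69 for Slc7a10. PFC susceptible against resilient mice ran from −0.32 to 0.45 for S100b, −0.12 to 0.28 for Cldn10, −0.34 to 0.49 for Fgfr3 and −0.40 to 0.48 for Ttyh1. NAc against PFC in resilient mice ran from −0.21 to 0.077 for Slc14a1 and −0.44 to 0.075 for Slc4a4. In all 10 of these the sign changed without PFC resilient 2. The cause was not tested.

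Counts over all genes moved more. For NAc against PFC in control mice, 1 gene passed, against 129 with DESeq2, 16 with limma-voom, 297 with the background covariate and 3 with consecutive numbers as pairs. In susceptible mice it was 1, against 5 with DESeq2, 0 with consecutive pairs, 0 without the 6 PFC libraries and 0 to 2 without 1 library (0 without NAc susceptible 2 or 5 or PFC susceptible 1, 2 without PFC susceptible 3 or 5). In resilient mice it was 0, against 88 with DESeq2 and 0 to 85 without 1 library, the highest without PFC resilient 4. Over the conditions it was 1527, against 2313 with DESeq2, 197 with limma-voom, 405 with the covariate, 11 with consecutive pairs and 43 without the 6 PFC libraries. There it was 596 to 3062 without 1 library, beyond 1.5 times the reported count without PFC susceptible 1 (724) and 3 (2314), PFC resilient 1 (596), 2 (870) and 4 (3062) and PFC control 2 (797). The susceptible interaction had 1 call with limma-voom. With the replicate number as a block, 675 genes passed over the conditions in place of 1527, and the block changed no other call, with 0 of the 10 genes passing. Depth limits S100b most, with 3 to 296 counts per library, and background limits the 5 lower genes.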
